A study of Medicago ruthenica with 3 samples.

Results

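Degradome libraries of rewatered leaves (RW) and of leaves kept watered (CK) of Medicago ruthenica, a perennial forage legume, were compared to find which transcripts had not returned to the control level 2 days after the end of a drought. RW plants were 4 weeks old when water was withheld for 15 days, which brought relative soil moisture to 20%, and were then watered to saturation. CK plants of the same cultivar were watered every 3 days and stayed above 80%. CK leaves were taken on day 15, as DS leaves were, and RW leaves 2 days later, so that 2 more days of age and the rewatering cannot be told apart. Another library, DS, came from plants at the end of the same 15 days without water, and its values are given beside the others. Each condition had 1 library. The design describes 3 biological replicates per condition, but whether their RNA was pooled for the degradome was not stated.

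The members of the comparison were all entries of the deposited table, each a small RNA paired with a transcript, that were above 0 in RW or in CK. These were 8901 of 11390 entries, on 5735 of 6912 transcripts and with 347 of 348 small RNAs. Entries were summed per transcript, and 893 transcripts with 10 or more reads over the 2 libraries were tested. The remaining 4842 (84.4%) were too shallow. The tested transcripts held 73.6% of the 29617 reads listed in RW and 78.4% of the 24790 listed in CK. The RW library listed 2145 transcripts that CK did not, CK listed 1249 that RW did not, and 2341 were in both. Values are given as reads and as RPM, in which the listed reads of each library are scaled to the same total, so that 1 read was worth 33.8 RPM in RW, 40.3 in CK and 30.6 in DS.

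A microRNA (miRNA) bound to an Argonaute protein cuts a transcript that pairs closely with it, and the downstream fragment is left without a cap. Degradome sequencing reads the 5′ ends of such uncapped, polyadenylated RNA. The number of reads on a transcript therefore moves both with how much of it is made and with how often it is cut, and the 2 cannot be told apart here. Uncapped ends also arise from ordinary RNA decay, and whether an entry marks a cut guided by its small RNA was not tested. In leaves, the best known miRNA targets are transcription factors of growth and development, auxin receptors and response factors, copper proteins and immune receptors. As a check of the tissue, the 35 photosystem and antenna transcripts listed had 665 reads in RW, 613 in CK and 457 in DS, while the 2 nodule and root transcripts listed had 5 in RW, 3 in CK and none in DS.

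Sequences of the miRNAs and transcripts were not used here. The study's quantitative PCR primers are printed for a pair of nuclear genes that the results below set against each other. PUMP5, a carrier of the inner mitochondrial membrane (TRINITY_DN21990_c1_g1), was still above CK in RW, and CP12-2, a small chloroplast protein that holds Calvin cycle enzymes inactive in the dark (TRINITY_DN21723_c1_g3), was close to CK. Sequences run 5′ to 3′.
PUMP5 forward primer: ggttttgttgaaggtggtat
PUMP5 reverse primer: gctgaggaaccggagtagac
CP12-2 forward primer: accccaagcttctcttcaac
CP12-2 reverse primer: ctgggtcatcagcacatgtc

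In RW leaves 105 of the 893 tested transcripts (11.8%) stood apart from CK, 55 higher (6.16%) and 50 lower (5.6%). The lower ones included phloem filament proteins, a lipoxygenase, a light-harvesting antenna protein, expansins and copper proteins, and at the greatest depth transcripts of no named function. Dehydrins, a NAC transcription factor, an auxin response repressor, the mitochondrial carrier PUMP5 and a Rubisco small subunit were among the higher ones. Median log2 ratios of gene lists take a library without reads at the floor named below. A transcript was called when a two-sided exact binomial test of its reads against the ratio of the library totals had an adjusted p under 0.05 (Benjamini-Hochberg over 893) and the ratio was at least 2-fold. Ratios are RW over CK, with exact 95% intervals that cover counting error only. Where a library had no read, the ratio was taken against a floor of 3 reads (101 RPM in RW and 121 RPM in CK) and is given as "at least". The test compares these libraries and not the conditions, since with 1 library each the spread within a condition is unknown.

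Transcripts called higher held 1706 reads in RW, against 378 in CK, or 5.76% and 1.52% of the listed reads, with 1387 reads (4.24%) in DS. Those called lower held 1107 reads in RW, against 4194 in CK, or 3.74% and 16.9%, with 3401 reads (10.4%) in DS. The lower transcripts were thus fewer, and held more reads in CK than the higher ones held in RW. Of the higher ones 16 had no read in CK, and over the rest the median ratio was 4.39 (2.07 to 15.1). Of the lower ones 1 had no read in RW, and over the rest the median ratio was 0.209 (0.0289 to 0.497). Transcripts with no named function made up 16 (32%) of the lower calls and 7 (12.7%) of the higher ones, beside 172 (19.3%) of all tested.

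At the opposite end, 62 of the 893 tested transcripts (6.94%) lay close to CK, in that their whole 95% interval of counting error fell between 0.5 and 2. With mapped reads as the scaling 29 did so. For 726 (81.3%), with a median of 17 reads, the interval held values both within and beyond 2-fold of CK. In all 119 transcripts (13.3%) passed the test at any fold. This share turned on depth. None of 464 transcripts with 10 to 19 reads could be placed close to CK, while among 65 with 100 reads or more 34 (52.3%) were close, 5 were higher, 12 were lower and 14 stayed undecided. An undecided transcript was therefore not shown to have recovered.

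**Figure D1:**
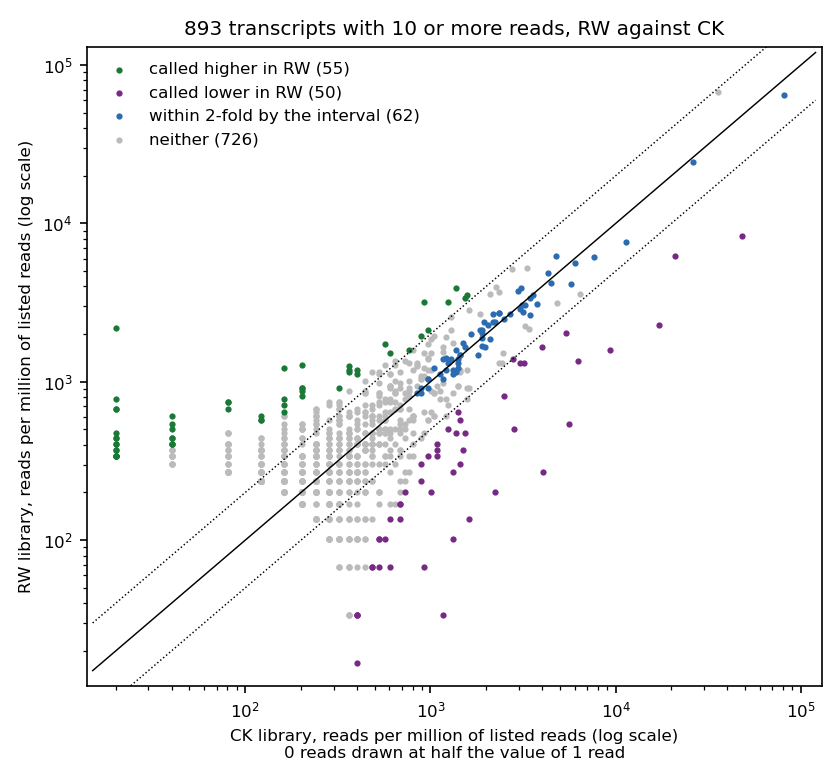
RPM in RW (vertical) and CK (horizontal), both on log scales, for the 893 transcripts with 10 or more reads. The solid line marks equal values and the dotted lines 2-fold, the 55 transcripts called higher lie above them at low depth, and the 50 called lower reach further to the right, among the deep transcripts of CK.

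The call depended on how much libraries of 1 condition may vary and on the scaling. With the study's mapped reads in place of the listed reads 199 transcripts were called, 179 higher and 20 lower, so that 89.9% of the calls were higher, against 52.4% with listed reads. With an assumed biological coefficient of variation of 0.2, edgeR's exact test called 29 transcripts (14 higher, 15 lower), all among the 105, and with 0.4 it called 1, the unannotated DN27212_c0_g1. NAC021, CAB21, SODCC, petC, the basic blue protein, AUX28 and PUMP5 were among those not called by edgeR at 0.2 (adjusted p from 0.079 to 0.28). Of the 105, 65 (45 higher, 20 lower) kept their call under all 4 other scalings that were tried.

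Proteins of the phloem, the tissue that carries sugars from leaves, included transcripts that were more than 10-fold lower in RW. SEOB, which builds the filaments of protein that can plug a sieve element, was listed on 2 transcripts. SEOB DN22893_c0_g1 had 8 reads (270.1 RPM) in RW, against 100 (4034 RPM) in CK, and 13 in DS. SEOB DN26009_c2_g2 had 16 reads (540.2 RPM) in RW, against 139 (5607 RPM) in CK, and 3 in DS. Both were low in RW and in DS and high only in CK. The ratios were 0.067 (0.0281 to 0.137, adjusted p = 4.3e-23, exact binomial test) and 0.0963 (0.0536 to 0.162, adjusted p = 9.3e-29, exact binomial test), and both calls held under every scaling and at the assumed variation of 0.2. Fewer phloem cells in a sample, less RNA per phloem cell and less frequent cutting cannot be told apart in these libraries.

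The phloem list did not move as a block. PP2A1, a lectin of phloem sap, had 10 reads in RW, against none in CK, which was at least 2.79-fold higher (adjusted p = 0.027, exact binomial test), and 9 reads in DS. CALS9, a callose synthase, had 7 reads in RW, against 4 in CK, and did not pass. Of 4 phloem transcripts tested 2 were lower and 1 was higher, beside 5.6% and 6.16% of all tested. The list's median log2 ratio was -1.41, beside 0.13 over all transcripts tested.

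SEOB held most of the reads of its small RNA in CK. Both transcripts were listed mainly with mtr-miR5559-5p, whose entries summed to 93 reads in RW, against 294 in CK (0.265, 0.207 to 0.335). The SEOB entries alone had 22 reads in RW, against 238 in CK (0.0774, 0.0476 to 0.120). All its other transcripts together had 71 reads in RW, against 56 in CK (1.06, 0.737 to 1.53). That remainder rested on RBCS-3C, a small subunit of Rubisco, which had 36 reads in RW, against 4 in CK, with the same small RNA. Without SEOB and RBCS-3C the other transcripts had 35 reads in RW, against 52 in CK (0.563, 0.356 to 0.881).

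**Figure D2:**
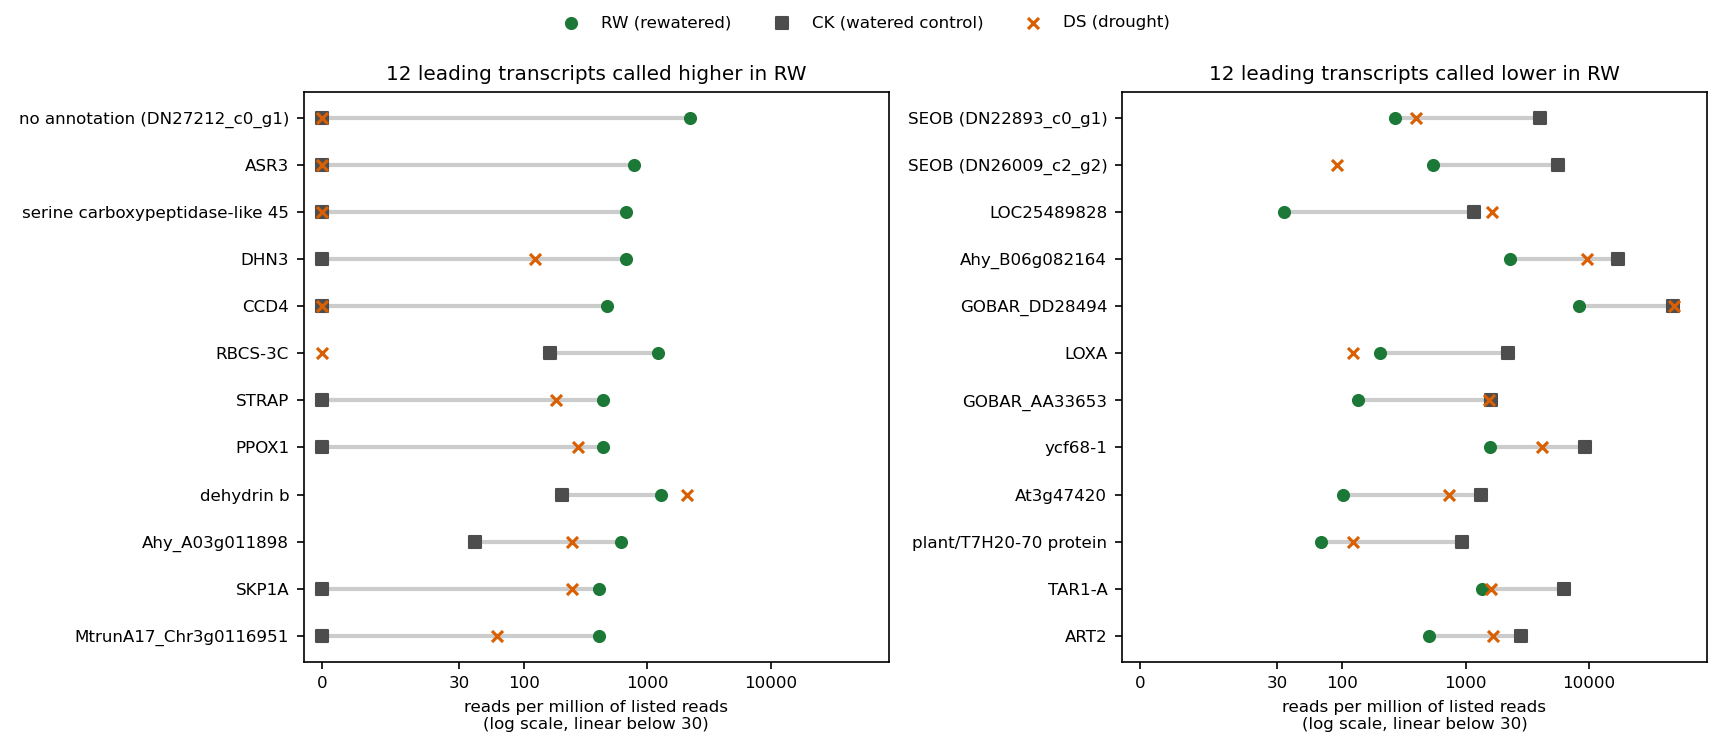
RPM (log scale, linear below 30) in RW, CK and DS for the 12 transcripts called higher in RW (left) and the 12 called lower (right) whose interval lay farthest from 1. On the right the RW points of SEOB DN22893_c0_g1 and LOXA lie near those of DS and that of SEOB DN26009_c2_g2 lies between DS and CK, while on the left 4 transcripts have reads in RW and none in CK or DS.

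LOXA, a lipoxygenase that adds oxygen to linoleic acid at the start of oxylipin synthesis, was as low as SEOB. It had 6 reads (203 RPM) in RW, against 55 (2219 RPM) in CK, and 4 in DS, a ratio of 0.0913 (0.0321 to 0.212, adjusted p = 3.3e-11, exact binomial test). The expansin EXPA8, which loosens the cell wall as cells grow, was lower on both of its transcripts. EXPA8 DN17834_c0_g1 had 39 reads in RW, against 79 in CK, and 10 in DS (0.413, 0.274 to 0.614, adjusted p = 0.00014, exact binomial test). EXPA8 DN16586_c0_g1 had 11 reads in RW, against 27 in CK, and 2 in DS (0.341, 0.153 to 0.710, adjusted p = 0.020, exact binomial test). Here RW lay between DS and CK, whereas LOXA in RW was at the level of DS. The EXPA8 calls ended when the study's mapped reads were the scaling (0.636 and 0.525), and that of DN16586_c0_g1 also ended without scaling (0.407).

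In the same cell wall list ASR3, annotated as a glycine-rich structural protein of the cell wall, stood on the other side. It had 23 reads in RW, against none in CK or DS, at least 6.42-fold higher than CK (adjusted p = 5.3e-05, exact binomial test). The deepest entry of ASR3 alone had under 10 reads and was not tested. The list as a whole had 7 transcripts tested, 1 higher, 2 lower and 4 that did not pass, with a median log2 ratio of 0.26. Beside it, 6.16% of all tested were higher and 5.6% lower.

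Among the sums of conserved miRNA modules, those of the copper proteins had the lowest ratios. These are the targets of miR398 and miR408, which in Arabidopsis are raised when copper is short. SODCC, a copper-zinc superoxide dismutase, had 24 reads in RW, against 62 in CK, and 22 in DS (0.324, 0.193 to 0.527, adjusted p = 4.8e-05, exact binomial test). CCS, the chaperone that loads copper into it, had 106 reads in RW, against 159 in CK, and 103 in DS, and passed the test at under 2-fold (0.558, 0.432 to 0.718, adjusted p = 0.00011, exact binomial test). A basic blue protein, a small copper protein listed with miR408 (DN16941_c0_g5), had 49 reads in RW, against 99 in CK, and 46 in DS (0.414, 0.288 to 0.589, adjusted p = 1e-05, exact binomial test). For all 3 the RW count lay within a few reads of DS. SODCP, the chloroplast superoxide dismutase, had 2 reads in RW, against 9 in CK, and 24 in DS (0.186, 0.0196 to 0.899), short of the threshold after adjustment. Summed over its targets, miR398 had 132 reads in RW, against 230 in CK (0.480, 0.385 to 0.598), and miR408 had 53 in RW, against 110 in CK (0.403, 0.285 to 0.565). The call of the basic blue protein ended with mapped reads as the scaling (0.638) and when only its deepest entry was kept (0.508), and that of SODCC held under every scaling but not at the assumed variation of 0.2 (adjusted p = 0.082, edgeR exact test). CCS did not pass at that variation either (adjusted p = 0.38, edgeR exact test).

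In the list of antioxidant enzymes, which holds SODCC, CCS and SODCP, 1 of 16 tested was lower, SODCC itself, and none was higher. That is near the 5.6% lower over all tested, where 6.16% were higher. The median log2 ratio stood at 0.16, while the summed reads were 428 in RW, against 421 in CK (0.851, 0.742 to 0.976). APX1, a cytosolic ascorbate peroxidase, had 39 reads in RW, against 19 in CK (1.72, 0.969 to 3.15). APXT, an organellar one, had 41 in RW, against 29 in CK (1.18, 0.718 to 1.97), and was the 1 antioxidant transcript close to CK. Neither passed the test.

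Photosynthetic transcripts split. CAB21, a chlorophyll-binding protein of the light-harvesting antenna, had 60 reads in RW, against 133 in CK, and 39 in DS (0.378, 0.274 to 0.516, adjusted p = 6.4e-09, exact binomial test). psaA, a core protein of photosystem I encoded in the plastid, had 5 reads in RW, against 17 in CK, and 6 in DS (0.246, 0.071 to 0.695, adjusted p = 0.038, exact binomial test). petC, the iron-sulfur subunit of the cytochrome b6-f complex, was higher instead, with 95 reads in RW, against 31 in CK, and 59 in DS (2.57, 1.69 to 3.98, adjusted p = 6.2e-05, exact binomial test). Of 15 photosystem and antenna transcripts tested 1 was higher, 2 were lower and 4 lay close to CK, with a median log2 ratio of -0.10. The shares over all tested were 6.16% higher, 5.6% lower and 6.94% close. The calls of CAB21 (0.581) and psaA (0.379) ended with mapped reads as the scaling, psaA also without scaling (0.294), and petC did not pass on its deepest entry alone (2.09).

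In the Calvin cycle 4 transcripts lay close to CK and most were undecided. RCA2, the activase that keeps Rubisco working, had 726 reads (24513 RPM) in RW, against 649 (26180 RPM) in CK, and 1706 (52141 RPM) in DS, and its ratio of 0.936 (0.841 to 1.04) lay close to 1. CP12-2 had 60 reads in RW, against 47 in CK, and 27 in DS on the transcript whose primers are shown (1.07, 0.717 to 1.60). The other CP12-2 transcript, DN14133_c0_g1, had 185 in RW, against 118 in CK, and 126 in DS (1.31, 1.04 to 1.67). With mapped reads as the scaling DN14133_c0_g1 was called higher (2.02). In the main values both were within 2-fold of CK by their intervals, as was the alpha subunit of the chaperonin that folds the large subunit of Rubisco, with 125 reads in RW, against 111 in CK (0.943, 0.724 to 1.23). RBCS-3C was the exception, 7.53-fold higher (2.70 to 29.1, adjusted p = 6.3e-05, exact binomial test) on 36 reads in RW, against 4 in CK, and none in DS. Of 13 Rubisco and Calvin cycle transcripts tested 1 was higher, none was lower and 4 were close, and the others were undecided. Their median log2 ratio was 0.10, and over all transcripts tested 6.16% were higher and 5.6% lower.

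Dehydrins, hydrophilic proteins that build up in tissue short of water, stood above CK after 2 days of water. Dehydrin b had 38 reads in RW, against 5 in CK, and 69 in DS (6.36, 2.50 to 20.7, adjusted p = 0.00012, exact binomial test). DHN3 had 20 reads in RW, against none in CK, and 4 in DS, at least 5.58-fold higher than CK (adjusted p = 0.00026, exact binomial test). Its deepest entry alone had under 10 reads and was not tested. In RW dehydrin b was lower than in DS, and DHN3 was higher, so that the pair did not follow 1 course through drought and rewatering. In the list of dehydrins and related dehydration or light induced proteins 2 of 4 tested were higher and none lower. Over all tested 6.16% were higher and 5.6% lower. The list's median log2 ratio was 2.57. The members that did not pass were ERD4, with 13 reads in RW, against 8 in CK, and a UPF0664 stress-induced protein, with 10 in RW, against 1 in CK.

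PUMP5 had 45 reads (1519 RPM) in RW, against 15 (605 RPM) in CK, and 187 (5715 RPM) in DS. It was thus well below its DS value and still 2.51-fold above CK (1.37 to 4.85, adjusted p = 0.019, exact binomial test). On its deepest entry alone the ratio was 1.67 and did not pass.

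Abscisic acid, the hormone of water shortage, was represented by few deep transcripts. AOG, which ties abscisic acid to glucose and so stores it, had 2 reads in RW, against 13 in CK, and 54 in DS (0.129, 0.0141 to 0.569, adjusted p = 0.018, exact binomial test). It was high in DS and below the control in RW. PP2CA, a phosphatase that represses abscisic acid signalling, had 14 reads in RW, against 2 in CK, and 28 in DS (5.86, 1.35 to 53.1), short of the threshold after adjustment. Of 6 tested in this list none was higher and 1 was lower, beside 6.16% and 5.6% of all tested. The call of AOG ended with mapped reads (0.198) and without scaling (0.154).

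**Figure D3:**
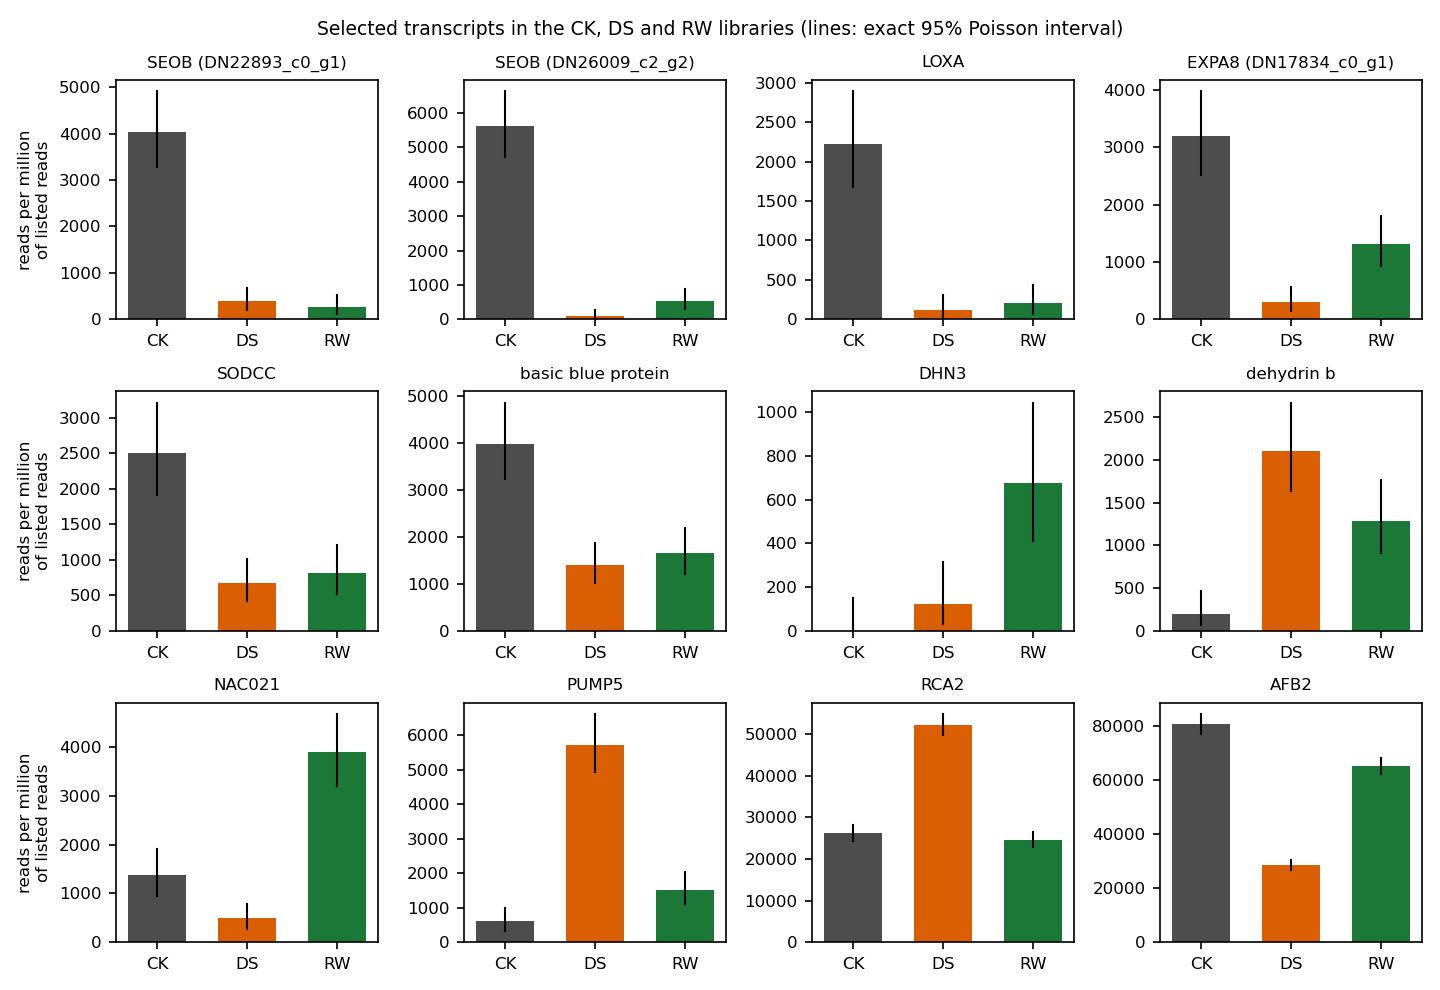
RPM in CK, DS and RW, each 1 library, for 12 transcripts, with bars from 0 and lines for the exact 95% Poisson interval of the count. SEOB DN22893_c0_g1, LOXA, SODCC and the basic blue protein have overlapping intervals in RW and DS, SEOB DN26009_c2_g2, dehydrin b and PUMP5 lie between DS and CK, NAC021 and DHN3 are highest in RW, and RCA2 and AFB2 are near CK.

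Calcium-regulated protein kinases were called on both sides. The CIPKs are switched on by calcineurin B-like calcium sensors. CIPK6 had 58 reads in RW, against 22 in CK, and 60 in DS (2.21, 1.33 to 3.79, adjusted p = 0.015, exact binomial test). CIPK4 had 17 in RW, against 3 in CK, and 16 in DS (4.74, 1.37 to 25.3, adjusted p = 0.047, exact binomial test). Both were at the same number of reads in RW as in DS, to within 2. CIPK25 had 14 in RW, against 38 in CK, and 100 in DS (0.308, 0.154 to 0.582, adjusted p = 0.0017, exact binomial test), and so was below control after having been above it in reads in DS. Of 9 calcium sensors and kinases tested 2 were higher and 1 was lower, beside 6.16% and 5.6% of all tested. The list's median log2 ratio was -0.61. CIPK25 was not called with mapped reads (0.475), nor CIPK4 with totals that left out the deepest transcripts (4.41). PERK1, a receptor-like kinase of the cell wall outside this list, had 13 reads in RW, against 1 in CK (10.9, 1.63 to 462, adjusted p = 0.041, exact binomial test).

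Among the conserved miRNA modules, textbook pairs of a miRNA family and its target family, 27 were searched and 19 had 10 reads or more. Of these, 3 had an interval wholly above 1, 6 wholly below 1, and 10 covered 1. None lay wholly beyond 2-fold. All modules together had 3926 reads in RW, against 3855 in CK (0.852, 0.815 to 0.891), and 2028 against 1865 without AFB2 (0.910, 0.854 to 0.970). The direction of that sum turned with mapped reads as the scaling (1.31) and without scaling (1.02). Of 57 module transcripts tested 2 were higher (NAC021 and 1 ARF8 transcript) and 5 lower (GRF6, SODCC, the basic blue protein, RPPL1 and RGA1), which is 12.3% called beside 11.8% of all tested, and 9 lay close to CK.

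The module of miR164 stood highest. NAC021, the NAC transcription factor that in Arabidopsis passes auxin signals on to lateral roots, had 115 reads (3883 RPM) in RW, against 34 (1372 RPM) in CK, and 16 (489 RPM) in DS. RW was the highest of the 3 libraries and DS the lowest. Its ratio was 2.83 (1.92 to 4.28, adjusted p = 6.2e-07, exact binomial test). NAC100 of the same module had 13 reads in RW, against 8 in CK, and did not pass, and the module as a whole stood at 2.38 (1.67 to 3.43). BHLH25 DN18091_c0_g1, the bHLH factor listed with miR2199, had the same order, with 152 reads in RW, against 68 in CK, and 28 in DS. It passed the test at under 2-fold (1.87, 1.40 to 2.53, adjusted p = 0.00034, exact binomial test), and at over 2-fold with mapped reads (2.88) and without scaling (2.24). In the same module BHLH25 DN19595_c0_g2 had 1 read in RW, against 6 in CK (0.140, 0.00303 to 1.15), and was not called. BHLH25 DN14117_c0_g2, outside the module, was called higher under every scaling but not at the assumed variation of 0.2.

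Auxin acts through receptors of the TIR1/AFB family, which destroy Aux/IAA repressors and so release auxin response factors (ARFs), and miR393, miR160 and miR167 cut transcripts at both ends of this chain. AFB2, the deepest auxin receptor, had 1927 reads (65064 RPM) in RW, against 1999 (80637 RPM) in CK, and 940 (28730 RPM) in DS. It had come back to within 2-fold of CK, and the remaining difference (0.807, 0.758 to 0.859, adjusted p = 1.4e-09, exact binomial test) turned above 1 for the miR393 module with mapped reads as the scaling (1.24). TIR1 had 39 reads in RW, against 31 in CK, and 40 in DS (1.05, 0.640 to 1.75), and lay close to CK.

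The deep ARFs had ratios above 1, not all of them past the test. ARF18 had 155 reads in RW, against 82 in CK, and 124 in DS (1.58, 1.20 to 2.09, adjusted p = 0.011, exact binomial test). ARF10 had 38 in RW, against 16 in CK, and 10 in DS (1.99, 1.08 to 3.82) and did not pass. ARF17, with 144 in RW, against 107 in CK, and 99 in DS (1.13, 0.871 to 1.46), and ARF6 DN25424_c0_g4, with 80 in RW, against 58 in CK, and 42 in DS (1.15, 0.813 to 1.65), lay close to CK. ARF8 DN23120_c0_g1 was called higher on few reads, with 17 in RW, against 3 in CK, and none in DS (4.74, 1.37 to 25.3, adjusted p = 0.047, exact binomial test), and lost the call with totals that left out the deepest transcripts (4.41). The deeper ARF8 DN23120_c0_g2 had 41 in RW, against 24 in CK, and 24 in DS over its miR167 entries (1.43, 0.844 to 2.47), and was not called. The Aux/IAA repressor AUX28 DN21274_c0_g2 had 104 reads in RW, against 39 in CK, and 62 in DS (2.23, 1.53 to 3.31, adjusted p = 0.00027, exact binomial test). A second AUX28 transcript, DN22520_c0_g3, had 111 in RW, against 74 in CK, and was close (1.26, 0.927 to 1.71). Of 12 auxin transcripts tested 2 were higher, none lower and 5 close, beside 6.16%, 5.6% and 6.94% of all tested. The list's median log2 ratio was 0.42. The module of miR160 as a whole stood at 1.38 (1.15 to 1.64) and that of miR167 at 1.28 (0.977 to 1.68).

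Leaf growth and polarity factors lay on both sides of CK. REV DN24440_c0_g3, a class III HD-ZIP factor that sets the upper side of the leaf and a target of miR166, had 183 reads in RW, against 190 in CK, and 128 in DS (0.806, 0.654 to 0.993), and was close to CK, while REV DN24440_c0_g1 had 63 in RW, against 32 in CK (1.65, 1.06 to 2.61 over its miR166 entries), and was not called. GAM1, a GAMYB factor of gibberellin signalling and a target of miR159, had 85 in RW, against 75 in CK, and 34 in DS (0.949, 0.687 to 1.31), and was close too. SCL6, a GRAS factor and target of miR171, had 33 in RW, against 28 in CK, and 33 in DS (0.986, 0.578 to 1.69). The growth-regulating factor GRF6, a target of miR396 that promotes leaf cell division, was lower. It had 39 in RW, against 75 in CK, and 27 in DS (0.435, 0.288 to 0.649, adjusted p = 0.00044, exact binomial test). Its call ended with mapped reads (0.670) and without scaling (0.520). The other GRF transcripts were not called. Over miR396 entries their ratios were 1.23 (GRF3 DN20719_c1_g2), 1.46 (GRF4) and 0.628 (GRF3 DN22214_c0_g3). The deepest AP2-like target of miR172, RAP2-7 DN22709_c0_g1, had 64 in RW, against 84 in CK, and 20 in DS (0.638, 0.453 to 0.893), and did not pass after adjustment. DN22322_c0_g1, with the symbol AP2 but annotated as RAP2-7 isoform X2, had 21 in RW, against 31 in CK, and 1 in DS. Both were high again in RW compared with their DS counts. The transcript annotated as APETALA 2, AP2 DN20294_c0_g3, had 9 in RW, against 6 in CK, and 1 in DS over its miR172 entry. Its ratio was 1.26 (0.399 to 4.29), and it was not called.

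The module of miR156 with SPL factors, which drive the change from juvenile to adult growth, stood at 1.08 (0.808 to 1.45) with 111 reads in RW, against 86 in CK, but its members lay on both sides. SPL7 had 22 reads in RW, against 8 in CK (2.30, 0.987 to 5.98), and TGA1, annotated as SPL13A, had 25 in RW, against 33 in CK (0.634, 0.362 to 1.10). Neither passed. The shallow modules held NFYA10 of miR169 (28 reads in RW, against 15 in CK), TCP2 of miR319 (10 in RW, against 5 in CK), FBX6 of miR394 (13 in RW, against 10 in CK), DCL1 of miR162 (8 in RW, against 6 in CK) and an F-box kelch-repeat protein of miR2111 (5 in RW, against 7 in CK). Their counts were too low to place them.

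Immune receptors of the NBS-LRR class, cut by miR482, miR2118, miR1507, miR2109, miR1510 and miR5213, were lower as a group of reads. The module had 219 reads in RW, against 275 in CK (0.667, 0.556 to 0.799). RGA1 had 14 in RW, against 34 in CK, and 18 in DS (0.345, 0.171 to 0.659, adjusted p = 0.011, exact binomial test). RPPL1 had 19 in RW, against 35 in CK, and 25 in DS (0.454, 0.246 to 0.816, adjusted p = 0.046, exact binomial test). RPP5, the deepest, had 23 in RW, against 39 in CK, and 49 in DS (0.494, 0.281 to 0.847) and just missed the threshold (adjusted p = 0.052, exact binomial test). It was called with totals that left out the deepest transcripts (0.459). Its deepest entry held all of these reads (0.494), so its call there came from the set of transcripts adjusted together and not from other reads. Of 10 receptors tested 2 were lower, none higher and 1 close, beside 5.6%, 6.16% and 6.94% of all tested. The list's median log2 ratio was -0.90. CPR1 (DN24462_c1_g4), an F-box protein that in Arabidopsis limits the amount of such receptors, was lower too, with 8 in RW, against 33 in CK, and 13 in DS (0.203, 0.081 to 0.448, adjusted p = 0.00018, exact binomial test), and was called under every scaling. With mapped reads the module stood at 1.03, and RGA1 (0.531) and RPPL1 (0.700) were no longer called.

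**Figure D4:**
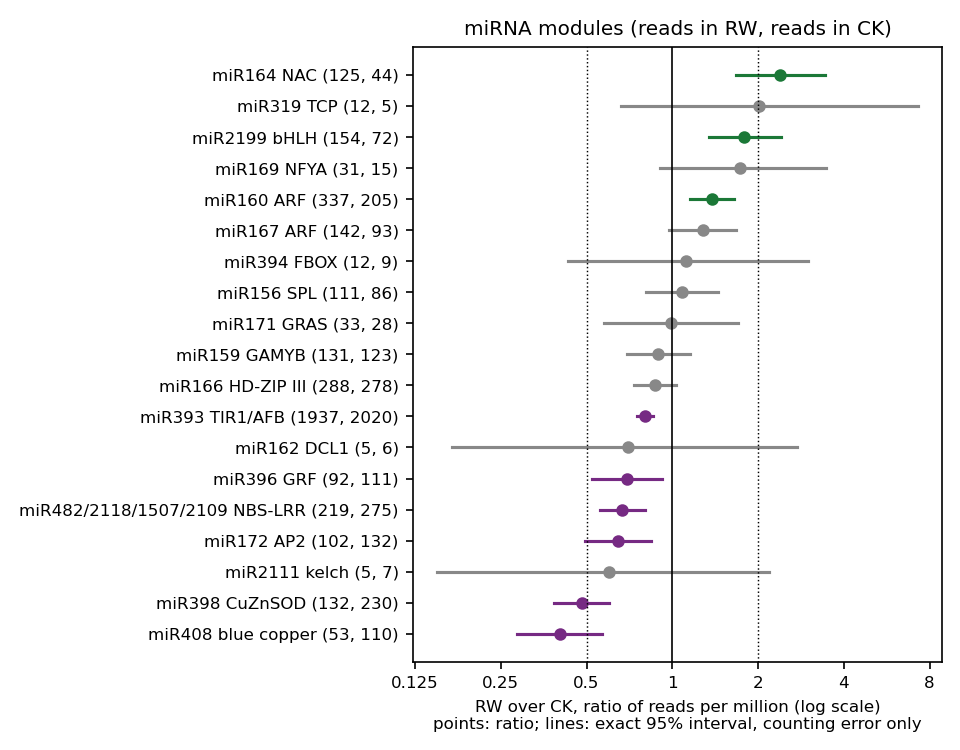
Ratio of RW over CK (log scale) with its exact 95% interval for the 19 conserved modules with 10 or more reads, whose reads in RW and then CK stand in brackets. The intervals of miR164, miR2199 and miR160 lie above 1, those of miR393, miR396, the NBS-LRR receptors, miR172, miR398 and miR408 lie below 1, and the other 10 cover it.

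Single entries mostly lay on the side of their transcript, but on some transcripts the reads were listed under different small RNAs in RW and in CK. Of 135 entries with 10 or more reads on called transcripts 131 were on the same side as the transcript, and 2 called entries went against its call. Of 836 entries with 10 or more reads 137 (16.4%) were called, 66 higher (7.89%) and 71 lower (8.49%). Of the called entries 48 lay on transcripts that were not called and 40 had no read in 1 of the 2 libraries. On 9 transcripts 1 entry was called higher and another lower. GRF6 had 37 reads in RW, against 0 in CK, under a csi-miR396a-5p variant, and 0 in RW, against 68 in CK, under mtr-miR396a-5p. REV DN24440_c0_g1 had 63 in RW, against 0 in CK, under mtr-miR166a_R+4, and 0 in RW, against 32 in CK, under mtr-miR166a_1ss21CA. ARF8 DN23120_c0_g2 had 41 in RW, against 0 in CK, under gma-miR167c_R+1, and 0 in RW, against 24 in CK, under a mtr-miR167b variant. RPPL1 had 19 in RW, against 0 in CK, under a miR2118 variant, and 0 in RW, against 35 in CK, under a miR482 variant. In each of these cases 1 entry held reads in RW alone and the other in CK alone. Such pairs are uncertain as changes of a single miRNA, and the sums per transcript are the main values here. Among 53 module transcripts with 10 or more reads and reads in both libraries, the leading small RNA differed between RW and CK on 7.

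Low totals of several small RNAs rested on their deepest transcript. Of 57 with 200 or more reads, 10 had a ratio under 0.5, and in 7 of these the interval covered 1 once the transcript with the most reads was left out. PC-3p-58648_87 had 150 reads in RW, against 399 in CK (0.315, 0.259 to 0.381), and 96 in RW, against 75 in CK, without Ahy_B06g082164 (1.07, 0.784 to 1.47). The small RNA listed as vvi-miR2111-5p had 87 in RW, against 186 in CK (0.392, 0.300 to 0.508), and 47 in RW, against 31 in CK, without TAR1-A (1.27, 0.790 to 2.07). Only PC-5p-21436_288 had a ratio over 2, with 1163 reads in RW, against 473 in CK (2.06, 1.85 to 2.30), nearly all on 7OMT. ppe-MIR169i-p5_2ss17GT19TG, listed on 1707 transcripts, had 5187 reads in RW, against 3763 in CK (1.15, 1.11 to 1.20).

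A few transcripts took up much of each library. The 7 with at least 1% of the reads of RW or CK held 18.2% of RW and 24.0% of CK. 7OMT, an O-methyltransferase of phenolic compounds and the deepest transcript of RW, had 2015 reads (6.80% of the library) in RW, against 882 (3.56%) in CK, and 1015 in DS. It passed the test just under 2-fold (1.91, 1.77 to 2.07, adjusted p = 1.5e-59, exact binomial test), and lay over 2-fold with mapped reads (2.94), without scaling (2.28) and on its deepest entry (2.06). ycf20, an uncharacterized protein with a plastid open reading frame name, had 226 in RW, against 281 in CK, and 102 in DS (0.673, 0.563 to 0.805).

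The deepest transcripts called lower had no named function in leaves. GOBAR_DD28494 had 245 reads (8272 RPM) in RW, against 1191 (48044 RPM) in CK, and 1597 (48810 RPM) in DS (0.172, 0.149 to 0.198, adjusted p = 1.5e-185, exact binomial test). Ahy_B06g082164 had 68 in RW, against 423 in CK, and 314 in DS (0.135, 0.103 to 0.174, adjusted p = 7.7e-76, exact binomial test). Dca009435 had 184 in RW, against 517 in CK, and 361 in DS (0.298, 0.250 to 0.353, adjusted p = 2.1e-49, exact binomial test). All of these were lowest in RW. In DS GOBAR_DD28494 was near its CK value. Ahy_B06g082164 (9597 RPM in DS, against 17063 in CK) and Dca009435 (11033 RPM in DS, against 20855 in CK) lay between RW and CK. RW was also lowest for LOC25489828, with 1 read in RW, against 29 in CK, and 54 in DS. The same held for GOBAR_AA33653, with 4 in RW, against 40 in CK, and 51 in DS. At3g47420, a putative glycerol-3-phosphate transporter, had 3 in RW, against 33 in CK, and 24 in DS (0.0761, 0.0149 to 0.243, adjusted p = 3.7e-07, exact binomial test). These transcripts were called under every scaling.

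Several of the lower transcripts carry names of organelle or ribosomal DNA. TAR1 and ART2 are yeast gene names that lie within the ribosomal DNA of yeast. TAR1-A had 40 reads in RW, against 156 in CK, and 53 in DS (0.215, 0.148 to 0.305, adjusted p = 2.5e-20, exact binomial test). ART2 had 15 in RW, against 70 in CK, and 55 in DS (0.179, 0.0954 to 0.316, adjusted p = 2.8e-10, exact binomial test). ycf68-1, annotated as a plastid ATP synthase subunit, had 47 in RW, against 231 in CK, and 136 in DS (0.170, 0.122 to 0.234, adjusted p = 6.9e-36, exact binomial test). All 3 were high in CK and low in RW. Of 4 transcripts in the list of organelle-encoded or organelle-derived names 2 were lower, ycf68-1 and psaA, and none higher, beside 5.6% and 6.16% of all tested. ND5 (5 reads in RW, against 5 in CK) and atpI (12 in RW, against 10 in CK) were neither called nor close, on few reads.

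The transcript highest above CK was DN27212_c0_g1, which has no annotation. It had 65 reads (2195 RPM) in RW, against none in CK or DS, at least 18.1-fold higher than CK (adjusted p = 1.2e-15, exact binomial test), all listed with an nta-miR482a variant. Serine carboxypeptidase-like 45, with 20 reads, and CCD4, a chloroplast enzyme that cleaves carotenoids, with 14, were also listed in RW alone, at least 5.58-fold (adjusted p = 0.00026, exact binomial test) and at least 3.91-fold (adjusted p = 0.0045, exact binomial test) higher than CK. Another set was absent from CK and present in both other libraries. STRAP had 13 reads in RW, against none in CK, and 6 in DS, PPOX1, an enzyme of vitamin B6 salvage, 13 in RW, against none in CK, and 9 in DS, and SKP1A, a core subunit of ubiquitin ligases, 12 in RW, against none in CK, and 8 in DS. These were at least 3.63-fold, 3.63-fold and 3.35-fold higher, taken against the floor of 3 reads, which is 121 RPM in CK. 2 hypothetical proteins complete the leading set, Ahy_A03g011898 with 18 reads in RW, against 1 in CK, and MtrunA17_Chr3g0116951 with 12 in RW, against none in CK.

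Calls in the lists of protein synthesis and turnover are set beside 6.16% higher and 5.6% lower over all transcripts tested. Of 24 ribosomal proteins tested 2 were higher, both of the chloroplast ribosome, and none was lower. Their median log2 ratio was 0.52, beside 0.13 over all tested, and their summed reads were 481 in RW, against 308 in CK (1.31, 1.13 to 1.51). RPL10 had 20 reads in RW, against 2 in CK, and 20 in DS (8.37, 2.03 to 73.9, adjusted p = 0.0069, exact binomial test), and RPL29 had 33 in RW, against 10 in CK, and 25 in DS (2.76, 1.33 to 6.28, adjusted p = 0.032, exact binomial test). Of 16 translation factors 1 was lower, TIF3I1, a subunit of initiation factor eIF3, with 2 in RW, against 12 in CK. In the ubiquitin list 2 of 26 were higher and 1, CPR1, lower. The higher ones were the ubiquitin ligases SINAT3, with 22 reads in RW, against 2 in CK, and 6 in DS (9.21, 2.26 to 80.8, adjusted p = 0.0026, exact binomial test), and RGLG2, with 10 in RW, against none in CK, and 4 in DS. Of 24 heat shock proteins and chaperones 1 was lower, BIP4, an Hsp70, with 4 in RW, against 17 in CK, and 4 in DS (0.197, 0.0482 to 0.604, adjusted p = 0.018, exact binomial test), none was higher, and the median log2 ratio was 0.13, the same as over all transcripts tested. Heat shock transcripts as a list thus stood at the level of the table as a whole.

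Transport, sulfur and RNA metabolism each had calls on both sides, as did all tested transcripts (6.16% higher and 5.6% lower). In the list of membrane transporters and carriers 3 of 17 tested were higher, PUMP5, ABCI8 and AMT1-2, and 1 was lower, At3g47420. ABCI8, an iron-sulfur cluster assembly protein rather than a transporter, had 34 reads in RW, against 9 in CK, and 35 in DS (3.16, 1.49 to 7.50, adjusted p = 0.015, exact binomial test). The ammonium transporter AMT1-2 had 12 in RW, against 1 in CK (10.0, 1.49 to 429). In the list of sulfate, glutamine and S-adenosylmethionine 1 of 10 was higher, SAMS, which makes S-adenosylmethionine, with 18 in RW, against 3 in CK, and 2 in DS (5.02, 1.47 to 26.6), and 1 was lower, CAS2, a cyanoalanine and cysteine synthase, with 6 in RW, against 18 in CK, and 5 in DS (0.279, 0.0907 to 0.734). Of 42 RNA-binding and splicing proteins tested 2 were higher and 2 lower. SF3B2, a spliceosome subunit, had 21 in RW, against 4 in CK (4.39, 1.48 to 17.6). At4g01020, annotated as an RNA helicase, had 12 in RW, against 1 in CK. SR45A, a splicing factor, had 3 in RW, against 13 in CK (0.193, 0.0353 to 0.703), and CP31B, a chloroplast RNA-binding protein, had 41 in RW, against 69 in CK, at a ratio of 0.497 that just met the 2-fold limit and missed it under the median of ratios (0.501). The other called transcripts of these lists were GT7 DN24813_c0_g1, a flavonoid glucosyltransferase, with 4 reads in RW, against 15 in CK (0.223, 0.0539 to 0.701), and LEG1, annotated as albumin I, with none in RW, against 10 in CK, at least 3.98-fold lower. The symbol GT7 was also given to DN19612_c1_g1, a scopoletin glucosyltransferase outside the lists, which was higher, with 23 in RW, against 4 in CK (4.81, 1.64 to 19.1). Of the 5 osmolyte, starch and sugar transcripts tested none was called. In these lists TIF3I1, BIP4, CAS2, SR45A and GT7 DN24813_c0_g1 were not called with mapped reads or without scaling, nor SAMS, RPL29, AMT1-2 and At4g01020 with totals that left out the deepest transcripts, nor ABCI8 on its deepest entry.

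**Figure D5:**
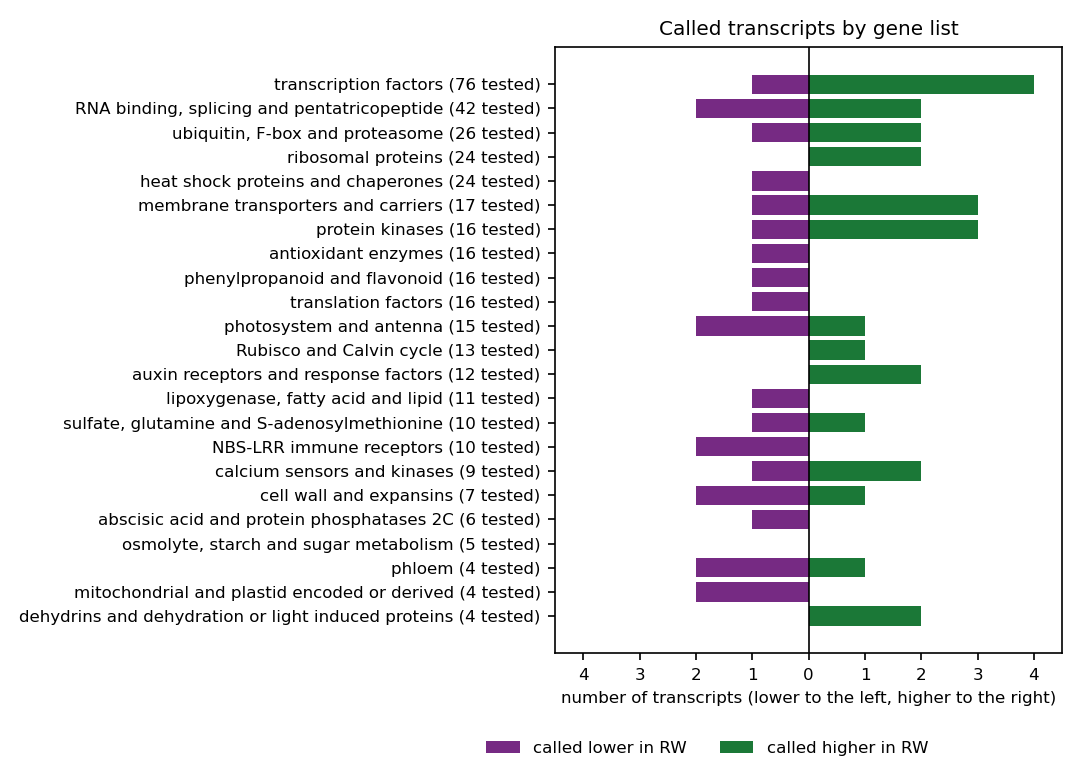
Number of transcripts called lower (bars to the left) and higher (bars to the right) in RW than in CK for each gene list with 4 or more transcripts tested, the number tested standing in brackets. Each list holds at most 4 calls on 1 side, and the phloem, organelle and dehydrin lists have calls on 2 or more of 4 transcripts tested.

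Deep transcripts that were close to CK came from several of the groups above. Besides AFB2, RCA2, both CP12-2 transcripts, REV and ARF17, they included PETH, the ferredoxin-NADP reductase of leaves, with 105 reads in RW, against 89 in CK, and 64 in DS (0.987, 0.737 to 1.32), an uncharacterized protein with the symbol At5g07830, with 166 in RW, against 150 in CK, and 83 in DS (0.926, 0.738 to 1.16), and DN25057_c1_g3, an unannotated transcript from the same assembly cluster as RCA2, with 122 in RW, against 142 in CK, and 362 in DS (0.719, 0.560 to 0.922). DN25057_c1_g3 had the order of RCA2 across the 3 libraries, highest in DS.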

How the data were processed

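Leaves of Medicago ruthenica were sequenced by the authors as degradome libraries, 1 for each of RW, CK and DS, and processed with ACGT101-DEG, which rests on CleaveLand4, against their Trinity assembly. The deposited values are RPM that the authors scaled to the reads listed in the table. Dividing each library by its smallest value above 0 gave whole reads, within 0.01 of a read, for 99.9539% of values in RW, 99.9803% in CK and 100% in DS, so that the count tests could be run on those reads. Groups came from the treatment label of each sample, and value columns were matched to samples by their titles.

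Transcripts and entries with 10 or more reads over RW and CK were tested with a two-sided exact binomial test against the ratio of the listed totals (scipy 1.17.1), adjusted by Benjamini-Hochberg, with a 2-fold minimum. Alternatives were mapped reads, no scaling, the median of ratios, other minimums of reads and fold, only the deepest entry of a transcript, and edgeR 4.0.16 with an assumed biological coefficient of variation of 0.2 or 0.4, since no replicate gives one. Totals without transcripts of 1% or more were added after the data had been seen.

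The members, modules and gene lists were chosen with earlier results of these data known, and words that matched by accident were removed from the lists after their members had been seen. Named are the 12 transcripts on each side with the interval farthest from 1, the deepest transcript of each module, up to 4 called members of each list, transcripts with 1% of the reads of RW or CK, the 10 deepest close ones, and module members by role. PP2CA, APX1, APXT, GT7 DN19612_c1_g1, CALS9, ERD4, the UPF0664 protein, ND5, atpI, AUX28 DN22520_c0_g3 and BHLH25 DN14117_c0_g2 were named outside this rule, after their values had been seen. Reads that fit more than 1 small RNA can enter a sum repeatedly. PCR reads without molecular identifiers are not independent molecules, so intervals cover counting error only. Gene names are those of the deposited annotation. No reference genome was used here.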

Additional observations from a re-analysis of the deposited data

How the results depend on the processing

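With the study's mapped reads in place of listed reads the median log2 ratio of all tested transcripts moved by 0.62, without scaling by 0.26, with the median of ratios by 0.01, and with totals without the transcripts of 1% or more, an alternative chosen after seeing the data, by -0.11. Mapped reads gave 199 called transcripts, 179 higher and 20 lower (89.9% higher, against 52.4%), of which 75 were shared with the 105, and 29 close ones, and for entries 209 called, 168 higher and 41 lower, 107 of them shared. No scaling gave 25 lower transcripts, and 76.6% of its calls were higher. Without a read minimum 46 of 5735 transcripts were called (20 higher, 26 lower), and with a minimum of 20 reads 77 of 346 entries (36 higher, 41 lower), fewer being tested. edgeR's exact test called 29 (14 higher, 15 lower) with an assumed variation of 0.2 and 1 (1 higher, 0 lower) with 0.4, where 30 transcripts above 1 and 21 below it had an unadjusted p under 0.05. All modules together stood at 1.31 with mapped reads and 1.02 without scaling, against 0.852. With mapped reads miR159 (1.37), miR166 (1.34), miR393 (1.24), miR396 (1.07) and the NBS-LRR module (1.03) turned above 1, miR172 stood at 0.996, and miR156 (1.66), miR319 (3.09), miR167 (1.97) and miR169 (2.66) came to exclude 1. Without scaling miR393 (0.959), miR172 (0.773) and miR396 (0.829) came to cover 1, and miR167 (1.53) and miR169 (2.07) to exclude it, as did miR166 (0.806) with totals without the deepest transcripts. No named called transcript changed its direction under the alternatives run for it. Called transcripts whose deepest entry alone fell under 10 reads were not tested on it. Among them were DHN3, ASR3, CCD4, SKP1A, PP2A1, PERK1, SF3B2, AMT1-2, AOG, TIF3I1 and BIP4. No paired analysis was possible because each condition has 1 library, and for the same reason no replicate could be left out. Depth limits the rest, since most transcripts had under 10 reads over RW and CK.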
